A study of Homo sapiens with 21 samples.

Results

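The genes described are 50 that act in DNA replication and S phase of the cell cycle. They were chosen by name, with earlier results of these data known, and were followed across all groups of the study. The list holds factors for replication origins, replication forks and deoxynucleotide synthesis together with repair genes active at forks. All 50 were among the 17691 genes of the expression table, and all 50 passed the filter on low values described below. The cells were MM.1S, an established line from the peripheral blood of a person with multiple myeloma, a cancer of plasma cells. Their messenger RNA was sequenced in 7 groups of 3 libraries, called biological replicates in the study's design. Wild type cells were left untreated or were collected 24, 48 or 72 h into pomalidomide at 1 µM, and a drug-free lentiviral knockdown of ARID2, of Aiolos or labelled as a control made up the other groups. Pomalidomide binds cereblon, which picks the targets of a ubiquitin ligase, and leads to the degradation of further proteins, among them Aiolos, the transcription factor encoded by IKZF3. ARID2 is a subunit of the PBAF chromatin remodelling complex. The hairpins were carried for 72 h in the knockdowns of ARID2 and Aiolos, and no source used here gives the hairpin or the time of the control knockdown. No vehicle and no untreated cells of 24, 48 or 72 h are named, so time in culture and time in the drug cannot be told apart.

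Replication starts at origins, where the origin recognition complex, CDC6 and CDT1 load the ring-shaped helicase formed by MCM2 to MCM7. In S phase MCM10, CDC45 and the GINS complex turn this ring into a moving helicase, polymerases and primase copy the strands behind it, and PCNA, the sliding clamp loaded by replication factor C, holds the polymerases on DNA. Many of these genes are transcribed mainly in late G1 and S phase, under control of E2F transcription factors, so their messenger RNA is widely used as a mark of proliferating cells. In bulk RNA, fewer cells in S phase and less RNA in each cell cannot be told apart.

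Values were given as TPM, a transcript share scaled by gene length, which keeps no sequencing depth, so the number of reads behind each value is unknown. Libraries of 1 group correlated at 0.993 to 0.996 across the 12559 genes kept, and libraries of different groups at 0.908 to 0.987. All 8 markers of plasma cells and myeloma reached 1 TPM, and their sum ran from 3403 to 5996 TPM per library. The sums of the markers of T and NK cells (4 in the table), myeloid (5), epithelial (4), stromal (3) and erythroid cells (2) ran from 1.39 to 5.35, 0.502 to 9.52, 0.0504 to 2.50, 0.0456 to 1.71 and 3.74 to 28.9 TPM, and none of these markers was at 0 in all libraries. Mitochondrial messenger RNA made up 13.3% to 18.6% of the listed TPM. The labels were checked on the targeted genes. ARID2 stood at 26.0, 25.4 and 25.4 TPM in control knockdown libraries, 12.4, 12.2 and 12.1 with ARID2 knocked down and 23.2, 20.4 and 24.6 in those labelled Aiolos knockdown. In the ARID2 knockdown it was -1.01 ± 0.07 on the log2(TPM + 1) scale against the control knockdown (adjusted p = 8.13e-11). IKZF3 stood at 83.5, 79.2 and 81.3 TPM in control knockdown libraries, 118, 119 and 122 with ARID2 knocked down and 127, 121 and 141 in those labelled Aiolos knockdown. It was higher, by 0.67 ± 0.05, in the group labelled as its knockdown (adjusted p = 1.92e-10), so the transcript goes against that label and the group is called here the libraries labelled Aiolos knockdown. A higher IKZF3 transcript was not particular to this group. Its mean was 115.5, 123.1 and 111.6 TPM at 24, 48 and 72 h of pomalidomide, against 96.4 in the untreated libraries.

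Changes were taken as differences in mean log2(TPM + 1), each with its standard error (SE), from 1 limma fit to all 12559 genes and 21 libraries, and a gene passed at a Benjamini-Hochberg adjusted p under 0.05. Adding 1 to the TPM makes the changes of low genes smaller than those of their TPM. Each p-value rests on a spread pooled over the 7 groups and moderated across genes. With 3 libraries in each group, it reflects these 21 libraries only.

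The members' messenger RNA fell over the 3 days in pomalidomide, with most of the fall made by 48 h. The summed TPM of all 50 members was 6721 ± 32.4 (SD, n = 3) in the untreated libraries, 3542 ± 31.3 at 24 h, 1360 ± 8.27 at 48 h and 1180 ± 0.93 at 72 h, which left 52.7%, 20.2% and 17.6% of the untreated sum. The control knockdown held 5639 ± 47.0 TPM, the ARID2 knockdown 4177 ± 36.6 and those labelled Aiolos knockdown 2799 ± 52.7. No library of any group overlapped another group in this sum. PCNA, the sliding clamp, had the highest mean in the untreated cells (728.5 TPM), followed by RRM2 (432 TPM), and POLE2 had the lowest (6.34 TPM).

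**Figure D1:**
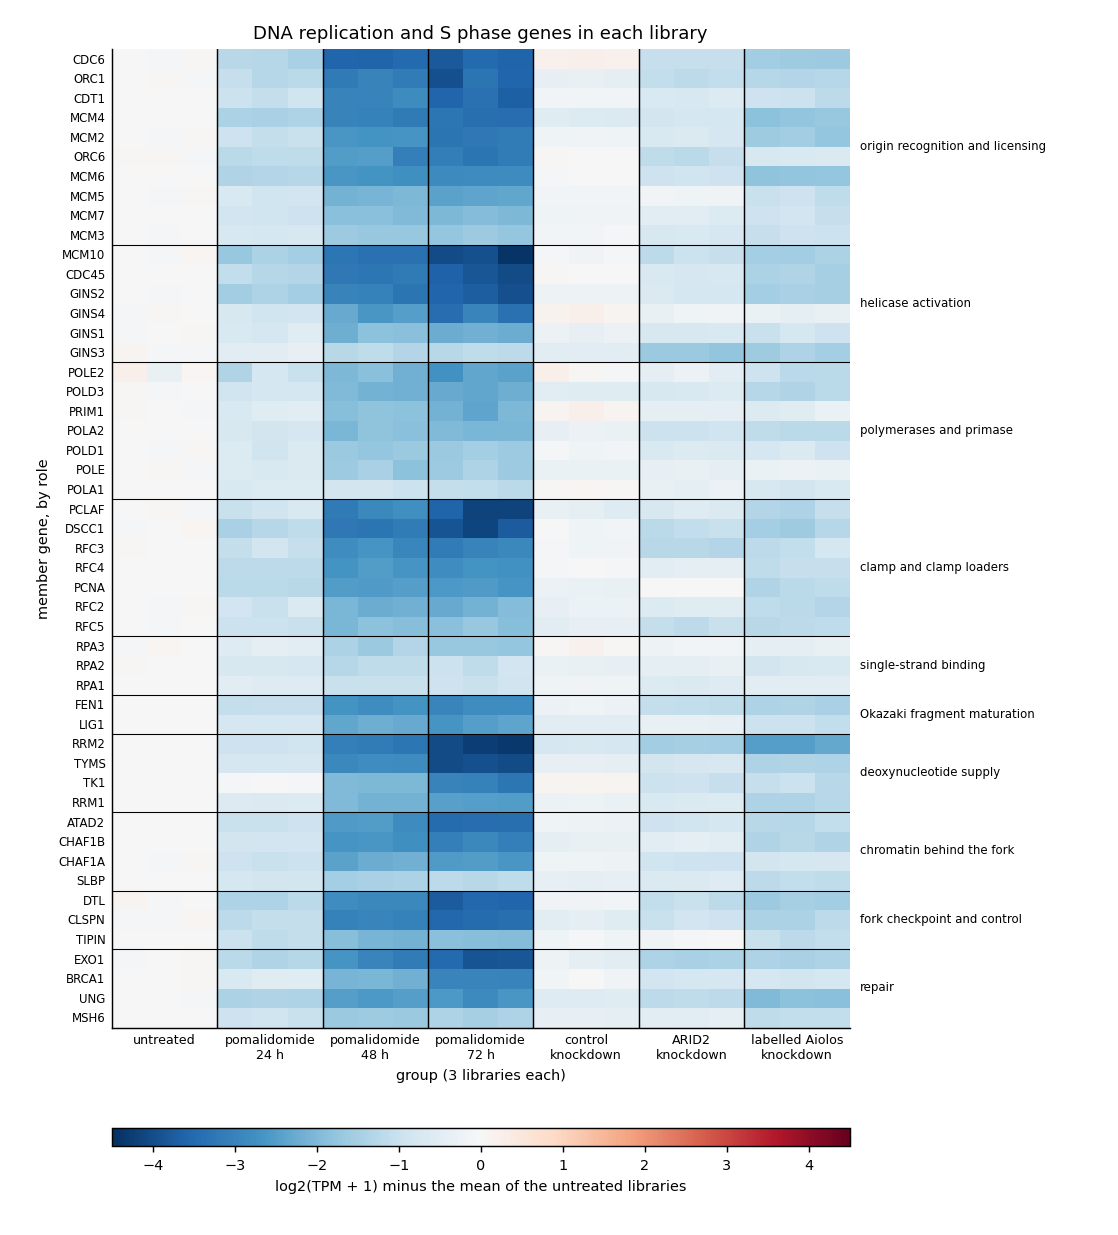
Each row is 1 of the 50 members, ordered by role, and each column 1 of the 21 libraries; the colour gives log2(TPM + 1) minus the mean of the 3 untreated libraries. Blue deepens from 24 h to 48 h in nearly all rows, TK1 is near white at 24 h, and both hairpin groups are paler than the 48 h libraries in most rows.

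Promoters of the members were read because the members fell together under the drug. RefSeq promoter windows (GRCh38.p14, 250 bases before to 50 after each start) were matched by symbol for 42 of the 50 members, which had 58 windows. They were searched on both strands for 4 spellings of an E2F site. The searched letters were TTCCCGC and TTGGCGC, as well as TTCGCGC and the related TTGCCGC. The CCAAT box was searched by its letters, the GC box as GGGCGG, and the CHR element of late cell cycle genes as TTTGAA. An E2F spelling was found in 41 of the 58 windows (70.7%), in 28.1% of the 57 windows that 37 of 45 other replication genes had and in 13.0% of all 35116 windows. The CCAAT box was found in 56.9% of the members' windows against 34.6% of all windows, the GC box in 77.6% against 45.0%, and the CHR element in 3.45% against 15.2%. In the windows of the other replication genes these were found in 54.4%, 75.4% and 8.77%, so the CCAAT and GC box shares were close to the members'. A match is a run of letters, not a measured binding site, and 1 stretch can match on both strands. Both gene lists were chosen with earlier results of these data known. The windows compared were not matched for base composition or for expression in these cells. As examples chosen after their values were seen, the 150 bases before the start are shown 5′ to 3′ for a gene of the helicase ring (MCM6, chr2:135876444-135876593, minus strand), the thymidylate synthase gene that fell late (TYMS, chr18:657503-657652, plus strand), a GINS subunit that fell early (GINS2, chr16:85688955-85689104, minus strand), a polymerase gene that fell little (POLA1, chrX:24693768-24693917, plus strand) and a gene that fell far without any of these E2F letters in the stretch shown (MCM10, chr10:13161408-13161557, plus strand). Capitals mark the E2F letters, read on either strand.
MCM6: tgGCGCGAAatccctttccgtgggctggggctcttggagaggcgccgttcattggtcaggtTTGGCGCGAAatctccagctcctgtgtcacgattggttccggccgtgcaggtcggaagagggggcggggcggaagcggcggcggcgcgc
TYMS: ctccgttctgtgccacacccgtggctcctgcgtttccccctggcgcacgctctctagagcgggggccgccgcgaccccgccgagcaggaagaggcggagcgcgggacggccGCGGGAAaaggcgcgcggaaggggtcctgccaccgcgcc
GINS2: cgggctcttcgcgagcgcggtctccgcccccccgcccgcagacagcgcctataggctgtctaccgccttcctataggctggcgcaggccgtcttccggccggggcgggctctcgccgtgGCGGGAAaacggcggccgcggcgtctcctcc
POLA1: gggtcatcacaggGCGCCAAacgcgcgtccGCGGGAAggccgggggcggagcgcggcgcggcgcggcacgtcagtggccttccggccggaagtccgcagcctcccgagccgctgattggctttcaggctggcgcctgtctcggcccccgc
MCM10: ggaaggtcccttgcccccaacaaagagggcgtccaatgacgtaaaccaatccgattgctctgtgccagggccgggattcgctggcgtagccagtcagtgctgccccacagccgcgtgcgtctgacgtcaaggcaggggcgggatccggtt
MCM6, with 2 such runs, and MCM10, with none, kept 13.6% and 3.63% of their untreated TPM at 72 h, while POLA1, with 2 runs, kept 44.8%.

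By 24 h in pomalidomide, 49 of the 50 members had fallen, where 31.0% of all genes tested fell, and none had risen, where 35.1% did. The members' median change was -0.92, against 0.03 over all genes, and 18 members had passed with a fall of at least 2-fold, as 1.98% of all genes had. The largest falls were those of MCM10 (-1.55 ± 0.09), GINS2 (-1.50 ± 0.09), MCM4 (-1.43 ± 0.05), UNG (-1.39 ± 0.05) and CDC6 (-1.34 ± 0.06). The smallest were those of TK1, GINS3 (-0.45 ± 0.07) and RPA3 (-0.50 ± 0.07), and the highest adjusted p among the 49 was 1.12e-05. TK1, the thymidine kinase that salvages thymidine for DNA synthesis, was the exception: its change of -0.05 ± 0.06 did not pass (adjusted p = 0.517), although its 24 h libraries (262, 267 and 264 TPM) all lay just below the untreated ones (269.5, 277 and 273 TPM). Under quantile normalization the TK1 value was 0.08.

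At 48 h all 50 members had fallen, where 34.8% of all genes had, and at 72 h again all 50, where 31.6% of all genes had. The 3 drug comparisons share the untreated libraries. The median change was -2.36 at 48 h (0.08 over all genes) and -2.71 at 72 h (0.15 over all genes, so -2.86 relative to that median). Median-of-ratios scaling moved the median of all genes at 72 h from 0.15 to 0.01. Falls of at least 4-fold on the fitted scale were reached by 35 members at 48 h, where 1.86% of all genes reached them, and by 38 at 72 h, where 2.55% did. At 48 h CDC6 (-3.56 ± 0.06), MCM10 (-3.32 ± 0.09), DSCC1 (-3.22 ± 0.10), CDC45 (-3.21 ± 0.07) and RRM2 (-3.15 ± 0.06) had fallen furthest. At 72 h these were RRM2 (-4.21 ± 0.06), MCM10 (-4.13 ± 0.09), TYMS (-3.99 ± 0.03), PCLAF (-3.98 ± 0.13) and DSCC1 (-3.92 ± 0.10). RPA1, RPA2 and POLA1 had fallen least at both times, with -1.01, -1.19 and -0.88 at 48 h and -0.95 ± 0.03, -0.99 ± 0.06 and -1.13 ± 0.05 at 72 h. Mitochondrial messenger RNA averaged 15.5% of the listed TPM in the untreated libraries and 17.0%, 16.7% and 13.8% at the 3 drug times, and without the mitochondrial and ribosomal protein genes the counts of lower members stood at 49, 50 and 50 again. The summed markers of plasma cells ran from 5155 to 5215 TPM in the untreated libraries, 4178 to 4261 at 24 h, 4863 to 4920 at 48 h and 5220 to 5321 at 72 h. The markers in this sum did not move alike between the untreated and 72 h libraries. Mean TPM of MZB1, SDC1 and CD38 went from 1133, 685.6 and 6.924 to 1977, 925.6 and 11.57. That of TNFRSF17, SLAMF7 and IRF4 went from 955.3, 714.2 and 468.9 to 530.5, 378.4 and 229.4. For PRDM1 and XBP1 it went from 143.8 and 1086 to 130.9 and 1079. The summed markers of myeloid cells ran from 0.88 to 2.73, 3.60 to 5.87, 5.24 to 8.91 and 4.51 to 9.52 TPM, in the order untreated, 24, 48 and 72 h. Those of T and NK cells ran from 1.66 to 2.34, 3.24 to 4.15, 3.89 to 5.35 and 2.30 to 2.84 TPM, in the same order. In the T and NK sum, mean CD2 went from 0.122 TPM to 2.124, 3.112 and 1.814. Mean GNLY went from 0.4109 TPM to 0.6594, 0.5569 and 0.5218, and mean CD3E from 1.352 down to 0.9227, 0.7508 and 0.282. The part of these markers in the members' changes was not tested. The drug libraries of all 50 members lay below the untreated ones without overlap at each time, as did 32.4%, 35.6% and 31.9% of all genes at 24, 48 and 72 h, and the highest adjusted p among the 50 was 2.68e-10 at 48 h and 1.05e-11 at 72 h.

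Among the genes of origin recognition and licensing, all 10 fell at each time, with a median of -1.07 at 24 h, -2.70 at 48 h and -3.20 at 72 h. ORC1, the largest subunit of the origin recognition complex (GENCODE 29 gene model on GRCh38, chromosome 1, 52372829 to 52404459, minus strand), stood at 69.7, 74.4 and 68.7 TPM in the untreated libraries, 33.6, 28.3 and 30.2 at 24 h, 6.90, 7.99 and 7.06 at 48 h and 3.64, 6.30 and 5.03 at 72 h. CDC6, the ATPase that brings the helicase to the origin (chromosome 17, 40287633 to 40304657, plus strand), stood at 86.1, 84.1 and 88.7 TPM in the untreated libraries, 35.5, 34.5 and 30.6 at 24 h, 6.41, 6.21 and 6.65 at 48 h and 5.40, 6.66 and 6.20 at 72 h. Its 48 h and 72 h libraries overlapped. CDT1, the helicase-loading partner of CDC6, stood at 56.4, 56.4 and 57.6 TPM in the untreated libraries, 28.4, 26.5 and 29.7 at 24 h, 6.27, 6.16 and 7.04 at 48 h and 3.91, 4.64 and 3.55 at 72 h. MCM2 stood at 256, 238 and 259.7 TPM in the untreated libraries, 132, 119 and 126 at 24 h, 39.5, 37.7 and 38.9 at 48 h and 25.0, 26.4 and 27.6 at 72 h. MCM6 (chromosome 2, 135839626 to 135876426, minus strand), of the same helicase ring, stood at 234, 243 and 239.5 TPM in the untreated libraries, 93.5, 96.1 and 96.3 at 24 h, 37.6, 36.5 and 34.3 at 48 h and 32.3, 32.4 and 32.9 at 72 h. In CDT1, MCM2 and MCM6 no library of a later time overlapped one of an earlier time. The ring's subunits were left at unequal shares at 72 h: MCM4 and MCM2 kept 9.41% and 10.5% of their untreated TPM, MCM6 13.6%, MCM5 18.6%, MCM7 24.6% and MCM3 30.3%.

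Of the 6 helicase activation genes, all fell at each time, and the median at 72 h was -3.50. MCM10, which takes part in activating the loaded helicase (chromosome 10, 13161554 to 13211104, plus strand), stood at 44.4, 41.4 and 46.7 TPM in the untreated libraries, 13.0, 15.8 and 14.5 at 24 h, 3.73, 3.43 and 3.42 at 48 h and 1.76, 1.91 and 1.13 at 72 h. It kept 3.63% of its TPM at 72 h, the lowest share of the 50. CDC45, which rides with the helicase, stood at 83.1, 86.1 and 82.9 TPM in the untreated libraries, 38.00, 33.5 and 33.2 at 24 h, 8.17, 7.99 and 8.47 at 48 h and 5.89, 4.88 and 4.16 at 72 h. GINS2, a GINS subunit (chromosome 16, 85676198 to 85690073, minus strand), stood at 39.7, 37.4 and 39.2 TPM in the untreated libraries, 12.4, 14.2 and 12.7 at 24 h, 4.005, 3.82 and 3.04 at 48 h and 2.38, 2.03 and 1.56 at 72 h. In each of these 3 genes no library of a later time overlapped one of an earlier time. The GINS complex has 4 subunits in equal number, and their transcripts did not fall alike: GINS2 and GINS4 kept 5.13% and 6.93% at 72 h, GINS1 19.4% and GINS3 41.3%.

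The 7 genes of the replicative polymerases and primase all fell, with a median of -2.03 at 72 h. PRIM1, the catalytic subunit of primase, stood at 43.3, 42.6 and 40.8 TPM in the untreated libraries, 25.8, 28.6 and 29.7 at 24 h, 10.5, 11.4 and 11.00 at 48 h and 8.79, 7.26 and 9.601 at 72 h. POLE2, the second subunit of polymerase epsilon, stood at 7.54, 4.81 and 6.66 TPM in the untreated libraries, 1.81, 3.23 and 2.63 at 24 h, 0.786, 0.949 and 0.612 at 48 h and 0.105, 0.427 and 0.364 at 72 h. It was the 1 member below 1 TPM in any library, and its fitted change of -2.49 ± 0.16 at 72 h stands beside a share of 4.72% of its TPM left. POLA1, the catalytic subunit of polymerase alpha (chromosome X, 24693919 to 24996986, plus strand), stood at 55.4, 54.0 and 54.9 TPM in the untreated libraries, 33.7, 35.5 and 35.5 at 24 h, 30.5, 30.1 and 27.5 at 48 h and 25.6, 24.8 and 23.3 at 72 h. Of all members it changed least between 24 h and 48 h, by -0.24 ± 0.05 (adjusted p = 0.000417).

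The 7 genes of the clamp and its partners fell at each time, with a median of -2.73 at 72 h. PCNA (chromosome 20, 5114953 to 5126626, minus strand) stood at 716, 732 and 737 TPM in the untreated libraries, 315, 311 and 306 at 24 h, 126, 124 and 131 at 48 h and 121, 124 and 114 at 72 h. RFC3, a subunit of the clamp loader, stood at 45.5, 43.4 and 42.9 TPM in the untreated libraries, 20.6, 24.0 and 20.7 at 24 h, 5.46, 6.18 and 4.82 at 48 h and 4.11, 4.62 and 4.96 at 72 h. Both had overlapping libraries at 48 h and 72 h. PCLAF, a small protein that binds PCNA, stood at 54.3, 57.4 and 53.6 TPM in the untreated libraries, 27.2, 28.9 and 34.2 at 24 h, 5.13, 6.59 and 7.34 at 48 h and 3.58, 2.11 and 2.16 at 72 h, with no overlap between successive times. DSCC1, of the alternative clamp loader that acts in sister chromatid cohesion, kept 5.03% of its untreated TPM at 72 h. The 3 subunits of RPA, which coats single-stranded DNA, fell less, with a median of -0.99. RPA1 stood at 149, 146 and 148 TPM in the untreated libraries, 105, 98.2 and 98.8 at 24 h, 73.0, 72.9 and 72.3 at 48 h and 76.4, 73.1 and 77.96 at 72 h. Its 72 h libraries lay slightly above its 48 h libraries. RPA1, RPA2 and RPA3 kept 51.5%, 50.1% and 28.8%. FEN1, the flap nuclease of Okazaki fragment maturation, stood at 416, 412 and 417 TPM in the untreated libraries, 199, 202 and 202 at 24 h, 63.1, 59.3 and 64.1 at 48 h and 52.4, 59.6 and 59.3 at 72 h, and LIG1, the ligase that seals the fragments, kept 16.5%.

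The 4 genes of deoxynucleotide supply had the lowest median of the 10 roles at 72 h, -3.54, after the second highest at 24 h, -0.69. RRM1, the large subunit of ribonucleotide reductase, stood at 225, 222 and 230.4 TPM in the untreated libraries, 148, 144 and 148 at 24 h, 56.1, 50.9 and 51.0 at 48 h and 41.2, 39.9 and 39.1 at 72 h. RRM2, the small subunit of the same enzyme (chromosome 2, 10120698 to 10131419, plus strand), stood at 433, 433 and 430.5 TPM in the untreated libraries, 226, 228 and 230.4 at 24 h, 50.2, 48.3 and 44.8 at 48 h and 25.6, 21.7 and 20.3 at 72 h. TYMS, thymidylate synthase (chromosome 18, 657604 to 673578, plus strand), stood at 403, 408 and 395 TPM in the untreated libraries, 239, 234 and 237 at 24 h, 53.6, 56.9 and 55.0 at 48 h and 24.0, 25.1 and 23.9 at 72 h. In all 3 genes each time lay below the one before, without overlap. TK1 (chromosome 17, 78174075 to 78187233, minus strand) stood at 269.5, 277 and 273 TPM in the untreated libraries, 262, 267 and 264 at 24 h, 67.8, 66.4 and 65.9 at 48 h and 33.4, 32.2 and 27.8 at 72 h. It had thus made 1.46% of its 72 h log2 change by 24 h and 65.1% by 48 h, where the medians over all members were 36.6% and 88.4%. The 2 subunits of ribonucleotide reductase kept unequal shares at 72 h, 17.7% for RRM1 and 5.21% for RRM2. In GENCODE 29, 39.1% of the exon bases of TYMS are shared with ENOSF1 on the opposite strand, and the library kit does not mark strand. ENOSF1 stood at 11.8, 11.4 and 11.5 TPM in the untreated libraries, 8.55, 8.68 and 7.58 at 24 h, 5.69, 5.31 and 5.05 at 48 h and 4.36, 4.76 and 5.09 at 72 h. The share of TYMS reads that could come from ENOSF1 was not tested. In 6 members, TYMS and MSH6 among them, over 10% of exon bases are shared with a protein-coding gene. The others share them on the same strand: RRM2 (20.2%, with AC007240.1), POLA2 (35.1%, AP000944.2), PRIM1 (14.9%, AC117378.1) and PCLAF (28.8%, AC087632.1). Antisense genes on the opposite strand share 22.7% of the exon bases of MCM2 (AC023593.1), 21.2% of those of GINS4 (AC009630.2) and 10.9% of those of GINS3 (AC009118.2). The part of these genes in the members' values was not tested. Named pseudogenes are annotated for 8 members (PCNA, RRM2, TYMS, RFC3, RFC5, FEN1, RPA2 and UNG), and no source used here says how reads shared with them were counted.

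The other roles fell as well. CHAF1A, the large subunit of the histone chaperone CAF-1, stood at 114, 106 and 118 TPM in the untreated libraries, 57.9, 56.2 and 56.6 at 24 h, 20.4, 23.0 and 24.1 at 48 h and 18.2, 18.7 and 17.5 at 72 h. SLBP, which binds the stem-loop of histone messenger RNAs, stood at 286, 295 and 288 TPM in the untreated libraries, 167, 162 and 162 at 24 h, 99.8, 104 and 108 at 48 h and 128, 121 and 131 at 72 h. Its 72 h libraries all lay above its 48 h libraries. CLSPN, the adaptor through which the fork checkpoint reaches CHK1, stood at 39.3, 39.0 and 43.0 TPM in the untreated libraries, 17.2, 18.6 and 18.5 at 24 h, 4.03, 4.26 and 4.06 at 48 h and 2.58, 2.74 and 2.98 at 72 h. DTL, the substrate receptor of the ligase that destroys CDT1 at PCNA, stood at 90.5, 77.0 and 81.2 TPM in the untreated libraries, 30.9, 31.3 and 35.3 at 24 h, 11.1, 10.2 and 10.2 at 48 h and 5.18, 6.29 and 6.02 at 72 h. CLSPN and DTL were lower at each successive time, with no overlap between times. Among the 4 repair genes, UNG, the uracil glycosylase, stood at 187, 187 and 177 TPM in the untreated libraries, 68.1, 71.1 and 69.6 at 24 h, 32.2, 30.1 and 32.0 at 48 h and 29.4, 24.5 and 29.2 at 72 h. EXO1, a mismatch repair exonuclease, stood at 56.2, 59.2 and 60.7 TPM in the untreated libraries, 24.8, 22.4 and 23.3 at 24 h, 8.42, 6.62 and 5.75 at 48 h and 4.28, 3.05 and 3.18 at 72 h. The times were as clearly apart, and in the same order, in CHAF1A, UNG and EXO1. BRCA1 kept 10.7% and MSH6, a mismatch repair gene, 36.5% of their untreated TPM at 72 h, and 16.2% of the exon bases of MSH6 are shared with FBXO11 on the opposite strand. FBXO11 changed by 0.11 ± 0.06 at 72 h, which did not pass (adjusted p = 0.11).

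**Figure D2:**
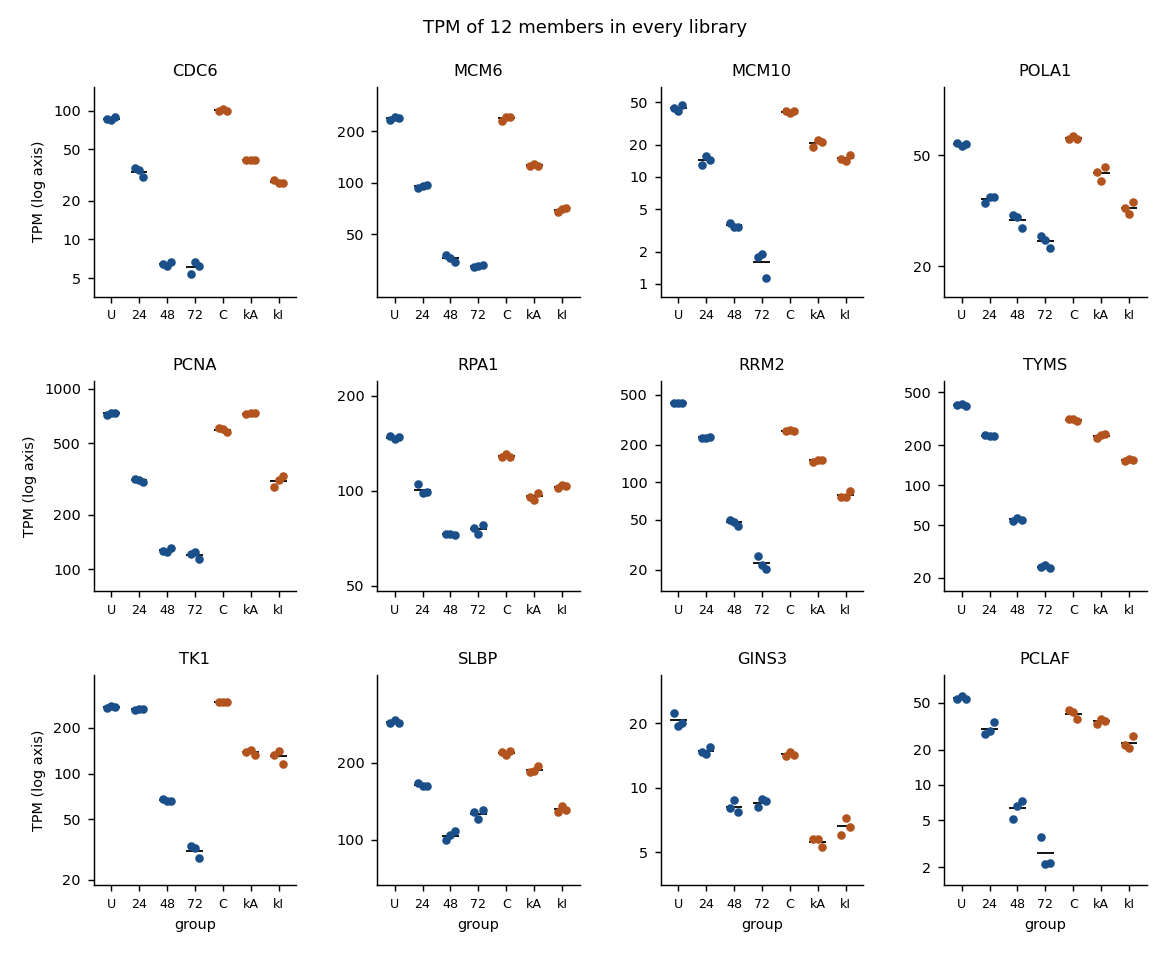
TPM on a log axis in every library for 12 members; U is untreated, 24, 48 and 72 are hours in pomalidomide (blue), and C, kA and kI are the libraries labelled as control, ARID2 and Aiolos knockdown (orange) with a line at each mean. TK1 is near its untreated level at 24 h, SLBP lies higher at 72 h than at 48 h, and PCNA in the ARID2 knockdown lies above the control knockdown.

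Between 24 h and 48 h all 50 members fell, where 26.1% of all genes fell, and 38 did so by at least 2-fold, where 3.10% of all genes did. The median change of -1.46 stood beside 0.04 over all genes. RRM2 (-2.23 ± 0.06), CDC6 (-2.22 ± 0.06), TYMS (-2.08 ± 0.03), PCLAF (-2.08 ± 0.13) and TK1 (-1.97 ± 0.06) fell furthest. POLA1, RPA1 (-0.46 ± 0.03) and RPA2 (-0.46 ± 0.06) fell least.

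Between 48 h and 72 h the members parted. A further 33 fell, where 16.5% of all genes did, 3 rose, where 31.6% of all genes did, and 14 did not pass; the median was -0.27, against 0.06 over all genes. The 4 with a further fall of at least 2-fold (1.01% of all genes) were 3 of the 4 deoxynucleotide genes, TYMS (-1.15 ± 0.03), TK1 (-1.08 ± 0.06) and RRM2 (-1.06 ± 0.06), and PCLAF (-1.04 ± 0.13). BRCA1 followed (-0.87 ± 0.06). In each of these 5 genes the libraries of the 2 times did not overlap. The 3 that rose were SLBP (0.28 ± 0.04, adjusted p = 2.39e-06), MSH6 (0.24 ± 0.04, adjusted p = 7.78e-05) and RPA2 (0.20 ± 0.06, adjusted p = 0.0064). RPA2 went from 62.0, 68.3 and 67.9 TPM to 77.7, 68.0 and 82.6, with overlap, and its call was lost under each of the 3 other scalings, in a fit to the compared libraries alone and without replicate 3 of 72 h (0.14). MSH6 went from 19.5, 20.3 and 19.1 to 23.9, 22.2 and 23.8 TPM, without overlap. The smallest changes were those of MCM3 (-0.03 ± 0.04), RFC2 (0.04 ± 0.08) and RPA1 (0.06 ± 0.03), and of the 7 genes of the clamp and its partners 5 did not pass, PCNA (-0.08 ± 0.04) and RFC3 (-0.22 ± 0.09) among them. Median-of-ratios scaling turned the RFC2 and RPA1 values negative and made PCNA, RFC3 and 4 further members pass as lower.

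**Figure D3:**
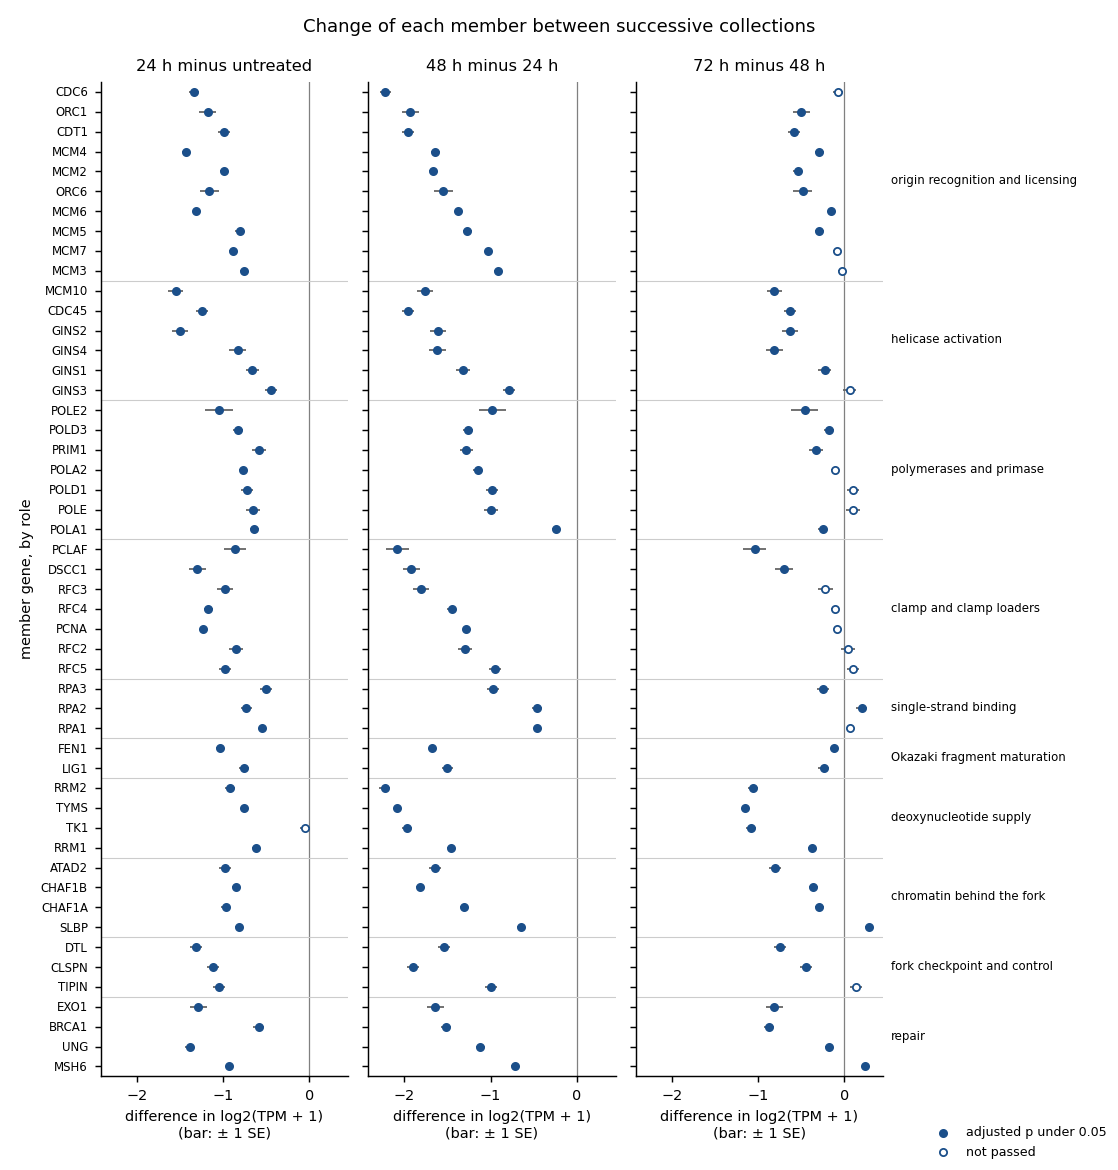
Difference in mean log2(TPM + 1) with its SE for each of the 50 members from untreated to 24 h, from 24 h to 48 h and from 48 h to 72 h; filled points passed at an adjusted p under 0.05 and open points did not. All 50 points lie left of 0 in the middle panel, and in the right panel the deoxynucleotide genes TYMS, TK1 and RRM2 and PCLAF lie furthest left while SLBP, MSH6 and RPA2 lie right of 0.

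The knockdowns were read against the control knockdown, which itself differed from the untreated cells. In it 31 members were lower, where 28.4% of all genes were, 1 was higher, where 17.3% were, and 18 did not pass; the median was -0.21, against -0.04 over all genes. RRM2 (-0.74 ± 0.06), MCM4 (-0.59 ± 0.05), UNG (-0.57 ± 0.05), POLD3 (-0.52 ± 0.06) and LIG1 (-0.50 ± 0.06) were lowest. CDC6 was the 1 higher member, with 98.9, 102 and 99.6 TPM against 86.1, 84.1 and 88.7 in the untreated cells (0.21 ± 0.06, adjusted p = 0.00524). MCM6 (-0.01 ± 0.03, positive under 3 other scalings), ORC6 (0.02 ± 0.11) and CDC45 (0.03 ± 0.07) had the smallest differences.

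In the ARID2 knockdown most members were lower than in the control knockdown, by less than under the drug, and PCNA was higher. Of the 50, 42 were lower, where 29.2% of all genes were, 2 were higher, where 33.1% were, and 6 did not pass; the median was -0.51, against 0.02 over all genes. The 7 that were lower by at least 2-fold, as 3.18% of all genes were, were CDC6 (-1.26 ± 0.06), GINS3 (-1.21 ± 0.07), ORC6 (-1.15 ± 0.11), RFC3 (-1.13 ± 0.09), TK1 (-1.09 ± 0.06), EXO1 (-1.07 ± 0.10) and DSCC1 (-1.01 ± 0.10). PCNA stood at 604, 594 and 572 TPM in control knockdown libraries, 722, 729 and 734 with ARID2 knocked down and 285, 312 and 327 in those labelled Aiolos knockdown. It was higher in the ARID2 knockdown by 0.30 ± 0.04 (adjusted p = 1.89e-06), with no overlap. Its mean with ARID2 knocked down, 728.3 TPM, was near that of the untreated cells, 728.5 TPM, and the control knockdown was lower than both at 590.3 TPM. LIG1, a partner of PCNA in sealing DNA, stood at 48.2, 47.4 and 46.7 TPM in control knockdown libraries, 53.9, 53.1 and 51.5 with ARID2 knocked down and 34.2, 33.7 and 30.6 in those labelled Aiolos knockdown. Its rise of 0.15 ± 0.06 (adjusted p = 0.0237) lost its call under median-of-ratios scaling (0.12) and without replicate 2 or 3 of the control knockdown or replicate 1 or 2 of the ARID2 knockdown. MCM5 (-0.04 ± 0.05), POLE (-0.06 ± 0.08), RPA2 (-0.05 ± 0.06), CHAF1B (-0.10 ± 0.05), TIPIN (0.06 ± 0.07) and PCLAF (-0.21 ± 0.13) did not pass. MSH6 passed narrowly (-0.09 ± 0.04, adjusted p = 0.0485) and its call was lost without any 1 of the 6 libraries compared. Mitochondrial messenger RNA averaged 17.2% of the listed TPM in control knockdown libraries and 18.5% with ARID2 knocked down; without the mitochondrial and ribosomal protein genes the PCNA rise was 0.33.

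In the libraries labelled Aiolos knockdown 49 members were lower than in the control knockdown, where 30.7% of all genes were, and none was higher, where 37.2% were; the median was -0.91, against 0.05 over all genes. The 2 knockdown comparisons share the control libraries. At least 2-fold lower were 19 members, as were 3.11% of all genes. CDC6, MCM6, RRM2, MCM2 and CDC45 were lowest. CDC6 stood at 98.9, 102 and 99.6 TPM in control knockdown libraries, 41.0, 41.5 and 41.7 with ARID2 knocked down and 28.8, 27.6 and 27.2 in those labelled Aiolos knockdown and was lower by -1.81 ± 0.06 in the last group. MCM6 stood at 230.4, 240.5 and 241 TPM in control knockdown libraries, 124, 129 and 125 with ARID2 knocked down and 66.9, 69.7 and 70.6 in those labelled Aiolos knockdown (-1.77 ± 0.03). RRM2 stood at 257, 262 and 256 TPM in control knockdown libraries, 146, 152 and 150.4 with ARID2 knocked down and 76.2, 76.8 and 85.8 in those labelled Aiolos knockdown (-1.69 ± 0.06). In all 3 genes the 3 groups were apart, with the ARID2 knockdown between the others. MCM2 and CDC45 changed by -1.45 ± 0.05 and -1.45 ± 0.07. POLE, the catalytic subunit of polymerase epsilon, did not pass, at 0.00 ± 0.08 (adjusted p = 0.961), and stood at 15.4, 15.5 and 15.2 TPM in control knockdown libraries, 14.7, 15.1 and 14.2 with ARID2 knocked down and 15.2, 15.6 and 15.1 in those labelled Aiolos knockdown. RPA1 (-0.32 ± 0.03) and RPA2 (-0.40 ± 0.06) had the smallest falls. The summed markers of plasma cells ran from 5941 to 5996 TPM in control knockdown libraries, 5291 to 5424 with ARID2 knocked down and 3403 to 3509 in those labelled Aiolos knockdown. Those of erythroid cells ran from 13.2 to 19.8, 26.7 to 28.9 and 3.74 to 7.97 TPM, and those of myeloid cells from 0.867 to 3.52, 0.502 to 0.608 and 1.35 to 2.11 TPM, in the same order. With ARID2 knocked down XBP1 went from 1292, 1292 and 1256 TPM in control knockdown libraries to 1655, 1683 and 1748. PRDM1 and SDC1 were also higher. MZB1 went from 1307, 1270 and 1356 TPM to 836.2, 851.5 and 809.8. TNFRSF17, IRF4 and SLAMF7 were also lower, and CD38 overlapped. In the libraries labelled Aiolos knockdown SDC1 and CD38 were higher and the others lower. HBB made up nearly all of the erythroid sum with ARID2 knocked down. The part of all these markers in the knockdown differences was not tested.

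**Figure D4:**
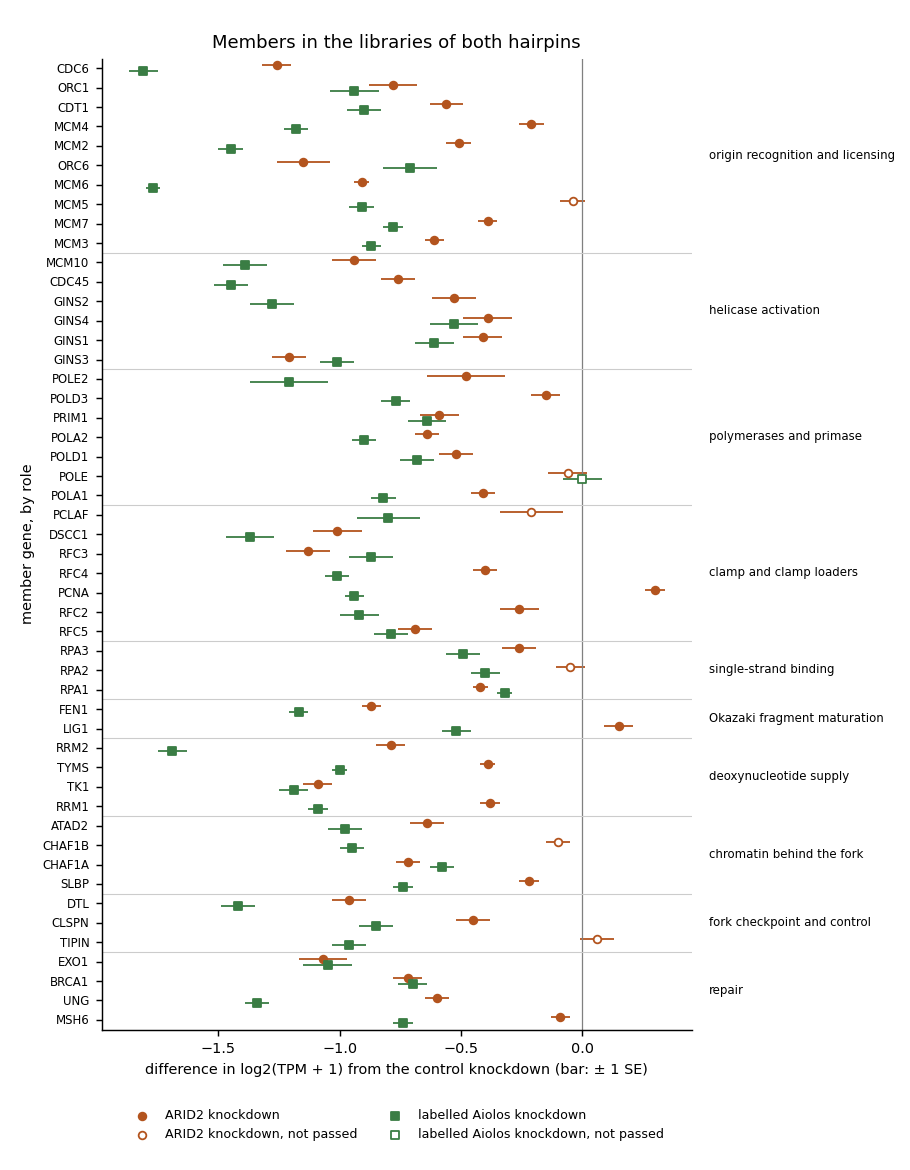
Difference in mean log2(TPM + 1) from the control knockdown, with its SE, for each of the 50 members with ARID2 knocked down (circles) and in the group labelled Aiolos knockdown (squares); open symbols did not pass. PCNA and LIG1 are the filled circles right of 0, and POLE is the 1 open square.

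Set directly against the libraries labelled Aiolos knockdown, the ARID2 knockdown had 36 members higher, where 30.2% of all genes were, 5 lower, where 35.7% were, and 9 that did not pass. The median was 0.40, against -0.03 over all genes. PCNA (1.24 ± 0.04), TIPIN, a partner of the fork protection factor TIMELESS (1.02 ± 0.07), MCM4 (0.97 ± 0.05), MCM2 (0.94 ± 0.05) and RRM2 (0.90 ± 0.06) differed most. TIPIN stood at 22.7, 25.2 and 22.4 TPM in control knockdown libraries, 22.8, 24.4 and 26.2 with ARID2 knocked down and 12.3, 10.8 and 11.4 in those labelled Aiolos knockdown. Its libraries of the control and ARID2 knockdowns overlapped, and those labelled Aiolos knockdown lay below both. The 5 members lower in the ARID2 knockdown were ORC6 (-0.43 ± 0.11), RFC3 (-0.26 ± 0.09), GINS3 (-0.20 ± 0.07), CHAF1A (-0.14 ± 0.05) and RPA1 (-0.10 ± 0.03). Of these, only ORC6 kept its call under every alternative tried. CHAF1A and RPA1 lost theirs under median-of-ratios scaling, GINS3 under quantile normalization, and RFC3 without replicate 3 of the ARID2 knockdown (-0.24) or of the libraries labelled Aiolos knockdown (-0.14). ORC6, the smallest subunit of the origin recognition complex, stood at 54.3, 52.0 and 52.7 TPM in control knockdown libraries, 23.3, 21.8 and 25.2 with ARID2 knocked down and 31.3, 31.8 and 32.9 in those labelled Aiolos knockdown. RFC3 stood at 41.0, 38.3 and 39.3 TPM in control knockdown libraries, 17.8, 17.9 and 16.8 with ARID2 knocked down and 18.9, 19.9 and 25.2 in those labelled Aiolos knockdown. In both genes the ARID2 knockdown was the lowest group, without overlap. EXO1 (-0.02 ± 0.10), BRCA1 (-0.02 ± 0.06) and PRIM1 (0.05 ± 0.08) differed least, and the first 2 changed sign under median-of-ratios and quantile scaling.

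The change after 72 h of pomalidomide was compared with that of each knockdown as a difference of effects in the same fit. Against the ARID2 knockdown, 49 members had fallen further under the drug, where 29.1% of all genes had a lower effect, and the median difference was -2.09, against 0.11 over all genes. PCLAF (-3.77 ± 0.19), TYMS (-3.60 ± 0.04), RRM2 (-3.42 ± 0.08), GINS2 (-3.21 ± 0.12) and MCM10 (-3.19 ± 0.13) differed most, and POLA1 (-0.71 ± 0.07) and RPA1 (-0.53 ± 0.04) least of those that passed. Against the libraries labelled Aiolos knockdown, 49 members had again fallen further, where 28.0% of all genes had a lower effect, with a median of -1.70, against 0.07 over all genes. PCLAF (-3.18 ± 0.19), TYMS (-2.99 ± 0.04), MCM10 (-2.74 ± 0.13), GINS4 (-2.73 ± 0.14) and EXO1 (-2.69 ± 0.14) differed most, and POLA1 (-0.31 ± 0.07) and SLBP (-0.45 ± 0.05) least of those that passed. The 2 differences share the drug, untreated and control libraries. GINS3, the member that did not pass in either (0.03 ± 0.10 and -0.17 ± 0.10), stood at 22.4, 19.5 and 20.03 TPM in the untreated libraries, 14.7, 14.3 and 15.6 at 24 h, 8.02, 8.72 and 7.73 at 48 h and 8.09, 8.85 and 8.64 at 72 h. In the knockdowns it stood at 14.03, 14.6 and 14.3 TPM in control knockdown libraries, 5.78, 5.76 and 5.28 with ARID2 knocked down and 6.05, 7.24 and 6.57 in those labelled Aiolos knockdown. Its drug change at 72 h was -1.18 ± 0.07, and its changes were -1.21 ± 0.07 with ARID2 knocked down and -1.01 ± 0.07 in the libraries labelled Aiolos knockdown. Under 3 other scalings its difference from the ARID2 effect was negative, and under 2 of them its difference from the Aiolos-labelled effect passed.

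A list of 45 further replication genes, none of them members and likewise chosen with earlier results known, moved in both directions. At 24 h 35 fell and 6 rose, where 31.0% of all genes fell and 35.1% rose. At 48 h 37 fell and 6 rose, where 34.8% of all genes fell and 43.8% rose. At 72 h 34 fell and 7 rose, where 31.6% of all genes fell and 48.1% rose, and the median was -1.53, against 0.15 over all genes. The ARID2 knockdown had 28 lower and 4 higher, where 29.2% and 33.1% of all genes were, and the libraries labelled Aiolos knockdown 33 lower and 3 higher, where 30.7% and 37.2% were. At 24 h the histone chaperone NASP (-1.25 ± 0.04) and MCM8, a relative of the helicase subunits (-0.99 ± 0.05), were among those that fell. At 48 h RECQL4, a helicase, had fallen by -2.52 ± 0.07 and MCM8 by -2.45 ± 0.05. At 72 h the histone chaperone ASF1B (-3.38 ± 0.07) and the origin-firing factor TICRR (-3.22 ± 0.07) were among those that had fallen. GMNN, the inhibitor of CDT1, also fell, by -2.23 ± 0.06 at 72 h. Subunits of the same machines in this list ranged widely at 72 h. PRIM2, the other primase subunit, changed by -1.76 ± 0.09, from a mean of 20.88 TPM untreated to 5.462 at 72 h. The member PRIM1, its partner in primase, went from 42.24 to 8.55 TPM, and the member POLA1 changed by -1.13 ± 0.05. POLD2 changed by -0.76 ± 0.06. ORC2 changed by -0.14 ± 0.06, RFC1 by -0.22 ± 0.05 and ORC4 by 0.38 ± 0.07. PRIM2, POLD2, ORC2, RFC1 and ORC4 all passed the test, though ORC2 lost its call without any 1 of the 6 libraries compared.

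Against the members' direction, RRM2B, the small reductase subunit that serves outside S phase and is induced by p53, stood at 8.58, 9.36 and 9.19 TPM in the untreated libraries, 13.8, 14.9 and 14.3 at 24 h, 14.9, 13.8 and 14.4 at 48 h and 14.5, 11.8 and 12.7 at 72 h. It was higher by 0.61 ± 0.09 at 24 h, 0.61 ± 0.09 at 48 h and 0.47 ± 0.09 at 72 h, while RRM2 fell. In the knockdowns it stood at 10.96, 10.1 and 11.9 TPM in control knockdown libraries, 7.03, 7.37 and 8.76 with ARID2 knocked down and 18.1, 20.5 and 21.9 in those labelled Aiolos knockdown, lower in the ARID2 knockdown (-0.46 ± 0.09) and higher in the libraries labelled Aiolos knockdown (0.82 ± 0.09), without overlap. SAMHD1, which breaks down deoxynucleotides, stood at 107, 106 and 107 TPM in the untreated libraries, 138, 138 and 145 at 24 h, 157, 154 and 151 at 48 h and 173, 168 and 175 at 72 h, and was higher by 0.69 ± 0.03 at 72 h. POLD4, the smallest subunit of polymerase delta, stood at 29.1, 34.6 and 34.1 TPM in the untreated libraries, 69.3, 68.4 and 69.9 at 24 h, 71.8, 79.98 and 78.4 at 48 h and 55.2, 52.3 and 55.7 at 72 h, and was higher by 1.07 ± 0.07, 1.21 ± 0.07 and 0.72 ± 0.07. MCM9, the partner of MCM8, was higher by 0.79 ± 0.07 at 72 h. In these genes no untreated library overlapped the 72 h libraries.

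The list of 11 regulators of S phase entry had 7 lower and 2 higher at 24 h, 8 and 2 at 48 h and 9 and 2 at 72 h, where 31.0%, 34.8% and 31.6% of all genes were lower and 35.1%, 43.8% and 48.1% higher. E2F1, the transcription factor that activates many members, stood at 225, 219 and 215 TPM in the untreated libraries, 95.6, 82.0 and 90.4 at 24 h, 19.96, 21.03 and 21.7 at 48 h and 15.3, 14.4 and 14.9 at 72 h. It fell by 3.80 on the log2(TPM + 1) scale at 72 h (adjusted p = 2.74e-22), with no overlap between times. In the knockdowns it stood at 219, 209 and 214 TPM in control knockdown libraries, 132, 134 and 130.1 with ARID2 knocked down and 67.7, 72.5 and 63.2 in those labelled Aiolos knockdown, in 3 groups that did not overlap. CDKN1B, an inhibitor of cyclin-dependent kinases, was higher by 1.00 ± 0.03 at 72 h. CDKN1A, the p53-induced inhibitor p21, which also binds PCNA, stood at 65.5, 67.2 and 63.3 TPM in control knockdown libraries, 586, 595 and 573 with ARID2 knocked down and 91.3, 96.9 and 86.0 in those labelled Aiolos knockdown. In the ARID2 knockdown it was higher by 3.14 ± 0.06 (adjusted p = 6.61e-19) and at 72 h of the drug by 1.23 ± 0.06. The 2 changes start from unlike levels, as CDKN1A stood at 25.5, 21.7 and 22.1 TPM in the untreated libraries. At 72 h of the drug it stood at 54.5, 55.5 and 55.9 TPM, and the control knockdown libraries lay above these and the untreated ones. CCNE2, a cyclin of S phase entry, stood at 5.78, 5.72 and 6.67 TPM in control knockdown libraries, 6.19, 6.93 and 7.39 with ARID2 knocked down and 1.55, 1.12 and 1.86 in those labelled Aiolos knockdown, and did not pass in the ARID2 knockdown (0.15 ± 0.13). Other cyclins of the list were lower there. CCNE1 went from 37.9, 38.9 and 39.1 TPM in control knockdown libraries to 20.1, 23.9 and 21.5 with ARID2 knocked down. CCNA2 went from 172, 170.2 and 165.1 to 57.1, 59.7 and 60.35 TPM. Of the 11 regulators, 6 were lower with ARID2 knocked down, where 29.2% of all genes were, and 2 higher, where 33.1% were. The other 3 did not pass.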

How the data were processed

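The members and gene lists were chosen with earlier results of these data known. Poly-A or other selection is not stated; total RNA of MM.1S cells was made into libraries with the TruSeq RNA Sample Prep Kit v2 and sequenced on a NovaSeq 6000, per the labels' protocols and the series' design text. The authors deposited 1 table of TPM values, for 17691 genes and 21 libraries; the build was hg38, per the submitters' processing notes, and for the aligner, quantifier and annotation: not given in the sources used here. Depth cannot be read from TPM.

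The filter kept the 12559 genes that reached 1 TPM in 3 or more libraries. limma 3.58.1 (R 4.3.3) was fitted with a mean-variance trend to log2(TPM + 1) of all 21 libraries with 7 group means (14 residual degrees of freedom), for 11 contrasts, 2 of them differences of effects. Benjamini-Hochberg adjustment ran over all kept genes in each contrast, with a threshold of 0.05. The script was tested on simulated data. Values in every library were given for chosen representatives of each role, and changes for the 5 members with the largest rises and falls, the 3 with the smallest, and exceptions of 5 or fewer per contrast; some genes of the list of further replication genes are not reported here by name. Alternatives covered the pseudocount, the filter, the scaling, the libraries fitted, a replicate block, the trend and leaving out each library. Promoter windows came from the RefSeq table (GRCh38.p14), gene positions and exon overlaps from GENCODE 29.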

Additional observations from a re-analysis of the deposited data

How the results depend on the processing

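Of the 22 counts of members that passed (higher and lower in 11 comparisons), 342 of 354 values under the alternatives stayed within 1.5 times the reported count. The higher members of the ARID2 knockdown against the control knockdown numbered 1 under median-of-ratios scaling, and 1 to 2 on leaving out 1 library. The members lower in the ARID2 knockdown than in the libraries labelled Aiolos knockdown numbered 3 under median-of-ratios scaling, 3 in a fit to the compared libraries alone, and 2 to 5 on leaving out 1 library. The members higher in the control knockdown than in untreated cells numbered 3 under quantile normalization, 2 without mitochondrial and ribosomal protein genes, and 5 in a fit to the compared libraries alone. The cause of these shifts was not tested. The median change of the members ranged from -0.98 to -0.89 at 24 h, -2.53 to -2.34 at 48 h, -2.87 to -2.69 at 72 h, -0.55 to -0.49 in the ARID2 knockdown and -0.98 to -0.89 in the libraries labelled Aiolos knockdown.

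Among the genes whose change is given for a comparison, signs changed only in values near 0 that had not passed; under the scalings, the signs of GINS3 from 48 h to 72 h (median-of-ratios) and RFC4 in the control knockdown (quantile), which had not passed either, changed too. Under median-of-ratios scaling these were FBXO11 at 72 h (-0.05), RFC2 (-0.05) and RPA1 (-0.03) from 48 h to 72 h, BRCA1 and EXO1 between the hairpins (both 0.01), MCM6 in the control knockdown (0.03) and GINS3 for the drug minus ARID2 effect (-0.08). Under quantile normalization they were TK1 at 24 h (0.08), RFC2 (-0.01) and RPA1 (-0.07) from 48 h to 72 h, MCM5 (0.02) and RPA2 (0.00) in the ARID2 knockdown, BRCA1 (0.03) and EXO1 (0.04) between the hairpins, MCM6 in the control knockdown (0.05) and GINS3 for the drug minus ARID2 effect (-0.02). Without mitochondrial and ribosomal protein genes they were RFC2 (-0.02), POLE in the libraries labelled Aiolos knockdown (0.03), MCM6 (0.04) and GINS3 (-0.03). On leaving out 1 library, RFC2 from 48 h to 72 h ranged from -0.05 to 0.11, POLE from -0.02 to 0.00, BRCA1 between the hairpins from -0.05 to 0.01, PRIM1 from -0.02 to 0.15, MCM6 in the control knockdown from -0.02 to 0.01, ORC6 there from -0.03 to 0.05, and GINS3 for the drug minus ARID2 effect from -0.01 to 0.09.

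The replicate numbers did not pair the libraries: same-numbered libraries of different groups correlated in their deviations at -0.125 to 0.11, and 2 of 21 libraries were closest to their own number. With the number as a replicate block, the lower members counted 34 from 48 h to 72 h, 41 in the ARID2 knockdown and 30 in the control knockdown, and the other counts were as reported. Precision is limited by 3 libraries per group and by TPM, which carries no depth.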
